A study of Mus musculus with 28 samples.

Results

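Monocyte-derived cells of Trem1-/- donors that had spent 1 day in the surgically inflamed small intestine were compared with primary monocytes from the bone marrow of Trem1-/- mice. The comparison comprised 10 of the 28 samples of the series, 7 from inflamed intestines and 3 from marrow, taken by the group labels of the raw count table. Of 72 targets on the NanoString nCounter panel, which counts barcoded probes bound to each transcript, 58 had values in every sample. The 3 housekeeping genes Actb, Gapdh and Rpl19 set the scale, and the remaining 55 targets were all tested.

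Donors were C57BL/6 Trem1-/- mice, and recipients were C57BL/6 CCR2-/- mice, which hold few blood monocytes of their own because CCR2 is needed for monocytes to leave the marrow. The recipients' intestines had been surgically manipulated 1 day before the transfer, and 100 donor-derived cells per recipient were sorted at day 1 after it. Marrow monocytes came from non-manipulated Trem1-/- mice and were never transferred. Marrow samples therefore differed from intestinal ones in source, transfer, sorting from tissue and inflammation together, and these cannot be told apart in this comparison. The sources used here do not give the number of marrow cells per sample. A further 3 groups served as context: cells of Trem1-/- donors from 5 intestines without surgery (control), cells of wild-type (WT) donors from 5 inflamed intestines, and marrow monocytes of 3 WT mice. Trem1 itself was blank in every Trem1-/- and marrow sample, so the genotype was not checked against it.

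TREM1 is an activating receptor of monocytes and neutrophils that amplifies signals from Toll-like receptors. Ly6C-high monocytes leave the marrow through CCR2, enter inflamed gut wall and there turn on cytokine and chemokine genes, while in healthy gut they mature into resident macrophages that carry MHC class II and the fractalkine receptor CX3CR1. Surgical handling of the bowel is known to set off an inflammation of its muscle layer in which recruited monocytes take part.

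Levels are given as normalised counts, which are probe counts divided by each sample's relative housekeeping level, and levels of different targets are not comparable. Total gene counts were 1351956 to 1583736 in the 7 inflamed-intestine samples and 1165758 to 1465470 in the 3 marrow samples. The housekeeping geometric mean was lower in every inflamed-intestine sample (33984 to 39903 counts) than in every marrow sample (49910 to 58269). After scaling, Actb averaged 113847 ± 5062 in inflamed-intestine samples and 136332 ± 7796 in marrow (SD), and Gapdh averaged 113378 ± 3828 in inflamed-intestine samples and 93634 ± 6320 in marrow, without overlap for either gene. Background, the mean plus 2 SD of 5 negative control probes, was 39.4 to 53.2 counts in inflamed-intestine samples and 44.4 to 59.0 in marrow. Counts of inflamed mice 5 to 7 and marrow mice 2 and 3 had been deposited times a multiplier of 1.33, and the multiplier was divided out. The remaining 4 inflamed-intestine samples and marrow mouse 1 were whole counts.

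A set of 5 promoters is shown because their genes gave the largest changes among those that the reference table holds, 4 upwards and 1 downwards. They are the 250 bases before the start site, from RefSeq on mouse build GRCm38.p6, 5′ to 3′ on the gene's strand. Capitals mark matches, on either strand, to an NF-kappaB motif (GGGANNTTC), an AP-1 motif (TGANTCA), a C/EBP motif (TTGCNNAA), an interferon response element (GAAANNGAA) or a TATA box (TATAAA).
Il1a (chr2:129309973-129310222, minus strand): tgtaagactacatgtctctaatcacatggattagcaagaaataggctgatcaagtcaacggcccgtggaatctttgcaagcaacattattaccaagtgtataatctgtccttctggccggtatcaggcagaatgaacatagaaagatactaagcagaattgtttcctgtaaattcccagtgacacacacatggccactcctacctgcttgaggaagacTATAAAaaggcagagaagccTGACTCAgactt
Il6 (chr5:30012864-30013113, plus strand): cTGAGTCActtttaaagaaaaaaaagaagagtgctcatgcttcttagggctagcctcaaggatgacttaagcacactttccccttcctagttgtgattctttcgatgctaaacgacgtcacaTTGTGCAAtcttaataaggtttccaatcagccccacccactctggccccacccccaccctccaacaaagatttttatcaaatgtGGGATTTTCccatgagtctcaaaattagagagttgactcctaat
Cxcl10 (chr5:92348890-92349139, minus strand): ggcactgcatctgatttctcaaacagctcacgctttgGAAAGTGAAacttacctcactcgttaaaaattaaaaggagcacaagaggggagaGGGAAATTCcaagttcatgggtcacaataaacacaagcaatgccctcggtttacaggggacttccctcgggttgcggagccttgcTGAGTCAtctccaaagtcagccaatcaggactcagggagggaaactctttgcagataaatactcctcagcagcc
Cxcl1 (chr5:90890995-90891244, plus strand): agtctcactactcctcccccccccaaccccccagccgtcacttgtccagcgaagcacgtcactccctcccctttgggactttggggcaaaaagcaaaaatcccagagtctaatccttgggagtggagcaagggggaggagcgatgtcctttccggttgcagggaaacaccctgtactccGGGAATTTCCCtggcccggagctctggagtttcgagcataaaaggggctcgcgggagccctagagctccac
Cx3cr1 (chr9:120068297-120068546, minus strand): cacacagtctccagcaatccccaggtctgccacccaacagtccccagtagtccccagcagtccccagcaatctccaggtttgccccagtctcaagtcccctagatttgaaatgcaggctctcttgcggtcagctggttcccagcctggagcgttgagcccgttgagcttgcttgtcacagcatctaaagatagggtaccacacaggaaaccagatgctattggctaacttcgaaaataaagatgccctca

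The Il6 promoter held an AP-1, a C/EBP and an NF-kappaB match in that order, and Cxcl10 held an interferon element, an NF-kappaB and an AP-1 match. Cxcl1 held a pair of overlapping NF-kappaB matches, 1 on each strand, Il1a held a TATA box and an AP-1 match, and no capitals stand in Cx3cr1. Promoters were present for 35 of the 55 targets, among them 12 of the genes called higher and 8 of those called lower. The NF-kappaB letters were found in 3 of 12 higher and 0 of 8 lower genes, against 3.70% of all 27025 promoters in the table. AP-1 letters were found in 5 of 12 and 0 of 8, against 7.82% of all. The C/EBP letters stood in 1 of 12 and 1 of 8 (10.8% of all), the interferon element in 2 of 12 and 3 of 8 (8.18%) and the TATA box in 3 of 12 and 2 of 8 (14.3%). These matches describe letters and were not tested as sites.

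Inflamed-intestine cells and marrow monocytes differed at 32 of 55 targets by edgeR's quasi-likelihood test (adjusted p under 0.05). All 5 inflammatory cytokines, all 3 chemoattractants, Arg1, Il10 and all 3 costimulation and antigen presentation genes tested were higher in the inflamed intestine, and Cx3cr1, Ccr2 and Itgb7, which serve monocyte traffic and adhesion, were lower. Fewer cells with a transcript and less of it per cell cannot be told apart in such samples. The 21 higher targets were 38.2% of those tested, and the 11 lower ones were 20%. The median log2 fold change over all 55 was 0.31. In 22 targets (40.0%) every inflamed-intestine sample lay above every marrow sample, and in 10 (18.2%) every one lay below. All 21 higher calls and 9 of the 11 lower calls were free of overlap. A two-sided exact permutation test over the 120 arrangements of 7 and 3 samples cannot go below p = 0.00833, and 35 targets had an unadjusted p under 0.05. The split depended on scaling, with 65.6% of calls higher under housekeeping genes. It was 19 higher and 20 lower (48.7% higher) with TMM, 20 and 21 (48.8%) with DESeq2 and 18 and 21 (46.2%) with total gene counts. It was 18 and 16 (52.9%) both with positive controls and with the authors' normalised values. Relative to housekeeping genes these scalings moved the log2 fold changes by a median of -0.62 (TMM), -0.71 (DESeq2), -0.71 (total), -0.43 (positive controls) and -0.73 (the authors' values).

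**Figure D1:**
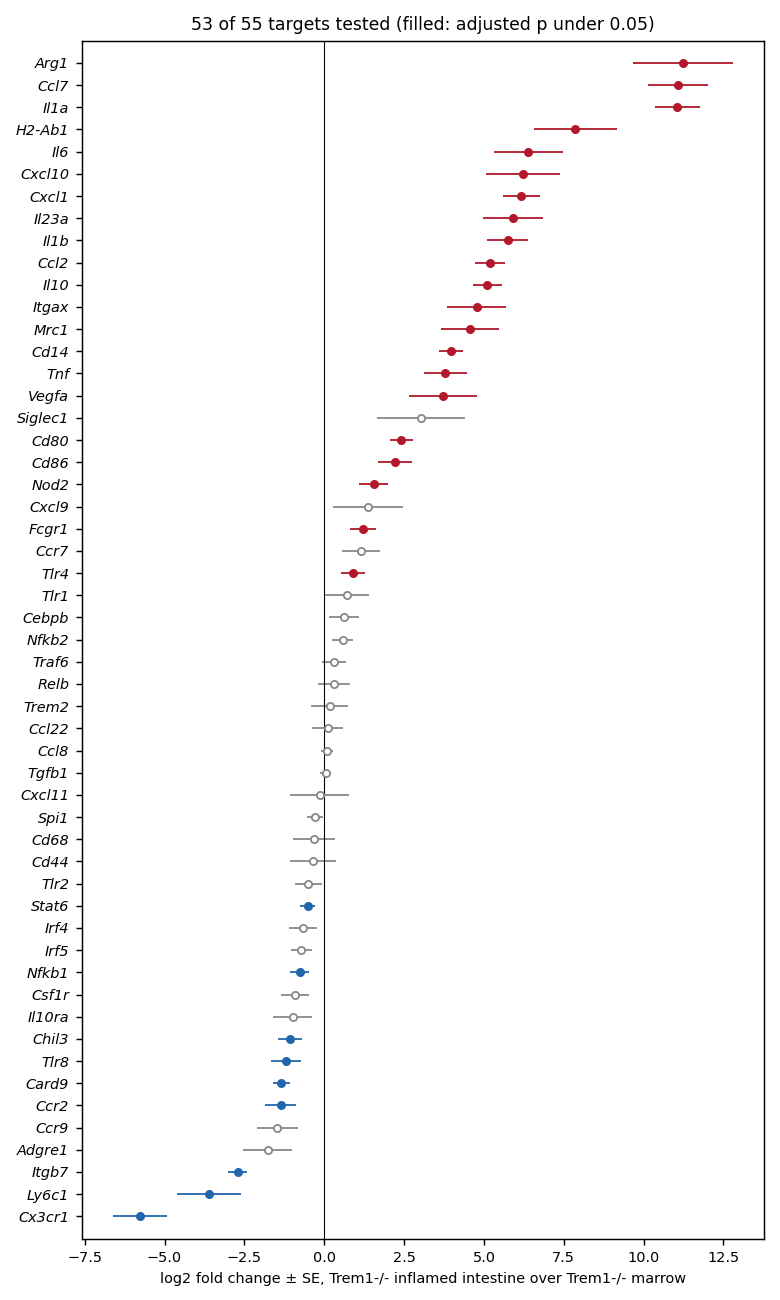
Log2 fold change of 53 of the 55 targets (horizontal axis, bars are SE) in Trem1-/- inflamed intestine over Trem1-/- marrow, ordered by size, with filled points for adjusted p under 0.05. Arg1, Ccl7 and Il1a stand apart above 11, and Cx3cr1 at -5.76 is the lowest.

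All 5 inflammatory cytokines tested were higher in the inflamed intestine, with a median log2 fold change of 5.92. Il1a, an alarmin that signals through the interleukin 1 receptor, had levels of 74228, 124277 and 156507 normalised counts (lowest, median and highest of 7) in inflamed-intestine samples, against 58.7, 56.4 and 50.0 in the 3 marrow samples. Every marrow sample was close to background, with 70 to 96 counts. Its log2 fold change was 11.06 (adjusted p = 4.12e-13, SE 0.69). Il1b, the secreted member of the same family that caspase-1 processes, lay at 42609, 56818 and 79376 in inflamed-intestine samples, against 617, 792 and 1898 in marrow. The groups were far apart, although marrow mouse 3 was above the other marrow samples. The log2 fold change of Il1b was 5.74 (adjusted p = 1.54e-08, SE 0.64), and 6.38 without marrow mouse 3.

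Il6, which drives the acute phase response, had the widest spread of the cytokines in the inflamed intestine, at 631, 2335 and 8768 normalised counts, against 30.0, 46.9 and 48.6 in marrow. Its marrow counts, 49 to 69, barely passed the background limit, so that the size of its log2 fold change of 6.39 (adjusted p = 1.17e-05, SE 1.07) is uncertain. Multiplied inflamed-intestine samples (2971 to 8768) lay above whole-count ones (631 to 2335) for Il6, with log2 differences from marrow of 6.85 and 5.58 within these classes. Il23a, the p19 chain of interleukin 23, gave 2379, 6724 and 11975 in inflamed-intestine samples, against 71.0, 109 and 149 in marrow. It was higher by a log2 fold change of 5.92 (adjusted p = 5.46e-06, SE 0.94). Tnf, the classical macrophage cytokine, had 54772, 133805 and 205162 normalised counts in inflamed-intestine samples, against 15628, 6482 and 8220 in marrow. Its log2 fold change was the smallest of the list at 3.79 (adjusted p = 2.53e-05, SE 0.67).

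The 3 chemoattractants tested were all higher, with a median log2 fold change of 6.17. Ccl7, a ligand of CCR2 that attracts monocytes, had 42205, 54201 and 63009 normalised counts in inflamed-intestine samples, against 21.4, 25.2 and 29.3 in marrow. All 3 marrow samples were below background for Ccl7, the only target of which this was true. Measured against the marrow background limit, Ccl7 was at least 1599.6-fold higher in the inflamed intestine (edgeR adjusted p = 1.99e-10).

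Ccl2, the main ligand of CCR2, lay at 40313, 54275 and 61548 normalised counts in inflamed-intestine samples, against 775, 1505 and 1949 in marrow, where every sample was well above background. It was 36.3-fold higher (log2 fold change 5.18, SE 0.47, adjusted p = 4.88e-10). Cxcl1, which attracts neutrophils through CXCR2, gave 5197, 8318 and 15081 in inflamed-intestine samples, against 85.6, 80.2 and 218 in marrow. Marrow mouse 3 was again the highest of its group, and the log2 fold change of 6.17 (adjusted p = 7.5e-10, SE 0.58) became 6.79 without it.

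Of the interferon-induced chemokines, which bind CXCR3 on lymphocytes, 1 of 3 was called. Cxcl10 had 8846, 49894 and 92524 normalised counts in inflamed-intestine samples, against 633, 811 and 785 in marrow (log2 fold change 6.22, SE 1.16, adjusted p = 4.88e-05). The groups did not overlap. All 3 multiplied inflamed-intestine samples (8846 to 40372) lay below the 4 whole-count ones (49894 to 92524), and the log2 difference from marrow was 4.71 within multiplied samples and 6.91 within whole-count samples. Cxcl9 was at 67.9 to 221.6 in 6 of the 7 inflamed-intestine samples and at 1552 in mouse 7, against 100, 72.8 and 202 in marrow (log2 fold change 1.37, adjusted p = 0.279). Cxcl11 had a log2 fold change of -0.14 (adjusted p = 0.88), with overlapping groups. Ccl22, a ligand of CCR4 made by dendritic cells and macrophages, had a value of 0.11 (adjusted p = 0.831).

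Genes of alternative activation and repair went both ways, with 4 of 7 higher, 2 lower and 1 not past the threshold. Arg1 encodes arginase 1, which competes with nitric oxide synthase for arginine. Its levels were 124325, 134062 and 153559 normalised counts in inflamed-intestine samples, against 64.8, 53.7 and 50.7 in marrow. All 3 marrow samples were near background at 71 to 106 counts. The log2 fold change was fitted at 11.24 (adjusted p = 8.4e-07, SE 1.57). Arg1 took 9.50% ± 0.84 of the gene counts of an inflamed-intestine sample (SD, n = 7) and 0.0064% ± 0.00073 of those of a marrow sample (n = 3).

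Il10, the anti-inflammatory cytokine that restrains gut macrophages, gave 23278, 45437 and 52988 normalised counts in inflamed-intestine samples, against 751, 941 and 2075 in marrow. The groups did not overlap, and the log2 fold change was 5.11 (adjusted p = 2.89e-10, SE 0.45). Il10ra, a chain of its receptor, had a log2 fold change of -0.99 (adjusted p = 0.156). Mrc1, the mannose receptor CD206, averaged 2033 ± 1392 in inflamed-intestine samples and 86.1 ± 17.7 in marrow (log2 fold change 4.56, SE 0.92, adjusted p = 0.00011). The multiplied inflamed-intestine samples (2514 to 4788) lay above the whole-count ones (874 to 1270), with log2 differences from marrow of 5.35 and 3.39 within these classes. Vegfa, an angiogenic growth factor, averaged 2583 ± 1442 in inflamed-intestine samples and 197 ± 205 in marrow, where mouse 1 was below background. Its log2 fold change of 3.71 (adjusted p = 0.00421, SE 1.06) was 4.95 without marrow mouse 3, and the log2 difference was 3.70 within multiplied and 6.00 within whole-count samples.

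Chil3, the chitinase-like protein Ym1 of monocytes, was lower, at 44903, 71730 and 85654 normalised counts in inflamed-intestine samples, against 147366, 174447 and 101097 in marrow. The groups were apart, with a log2 fold change of -1.08 (adjusted p = 0.0194, SE 0.39). It became -0.89 without marrow mouse 2 and -1.04 without mouse 1, neither past the threshold. Chil3 has a near-identical neighbour, Chil4, which cannot be told apart from it by the target name. Stat6, the transcription factor of interleukin 4 and 13 signalling, was lower by a log2 fold change of -0.52 (adjusted p = 0.0484, SE 0.23), a call that ended under 14 of 30 alternatives, among them the omission of any marrow mouse or of any inflamed mouse but mouse 5 (-0.48 to -0.60). Tgfb1, a cytokine of repair and tolerance, averaged 69330 ± 5814 in inflamed-intestine samples and 67178 ± 4173 in marrow, and its log2 fold change of 0.05 (adjusted p = 0.818) turned negative and past the threshold with DESeq2 (-0.71) and total gene counts (-0.67).

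**Figure D2:**
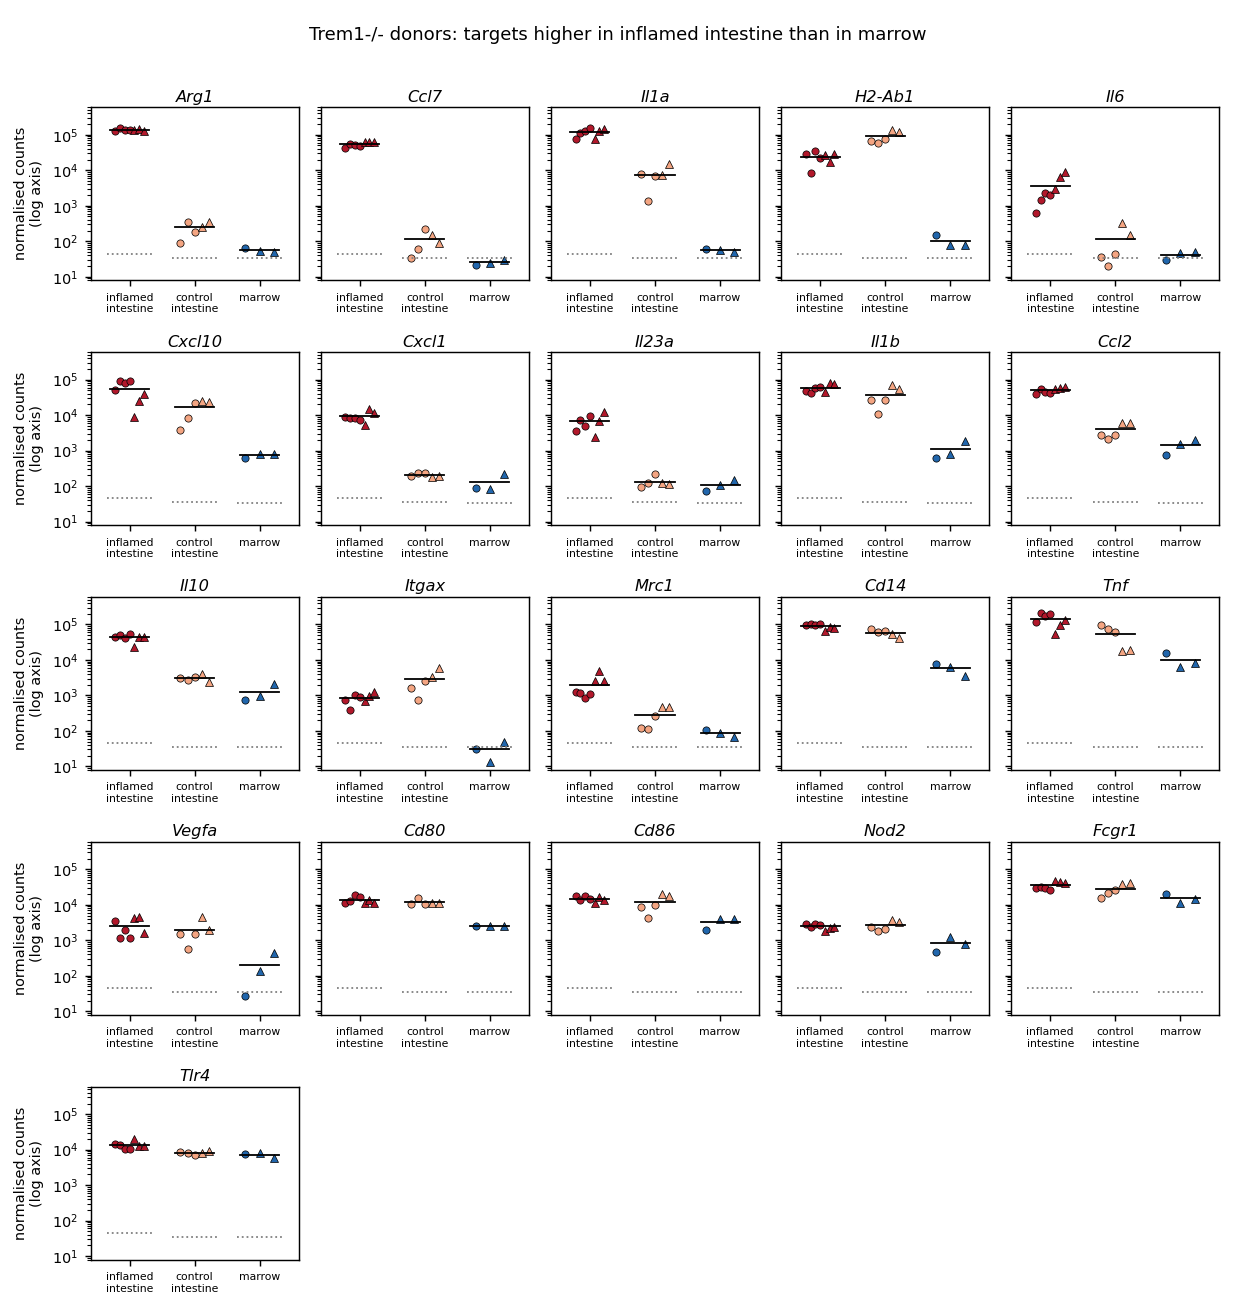
Normalised counts (log axis) of the 21 higher targets in each sample of Trem1-/- donors, in inflamed intestine, control intestine and marrow from left to right. Circles are whole-count samples, triangles multiplied ones, black lines means and dotted lines the mean background; for all 21 the inflamed-intestine samples stand above the marrow samples.

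All 3 genes of costimulation and antigen presentation were higher. H2-Ab1 encodes the beta chain of the MHC class II molecule I-A, and its levels were 8261, 26394 and 34925 normalised counts in inflamed-intestine samples, against 152, 80.2 and 76.4 in marrow. Its marrow counts of 107 to 248 were above background in all 3 samples, and the log2 fold change was 7.86 (adjusted p = 9.4e-06, SE 1.30). Cd80 and Cd86 bind CD28 on T cells. Cd80 averaged 13700 ± 2926 in inflamed-intestine samples and 2563 ± 23.8 in marrow, a 5.35-fold difference (adjusted p = 2.51e-06). Cd86 averaged 15069 ± 2424 in inflamed-intestine samples and 3238 ± 1131 in marrow, a 4.65-fold difference (adjusted p = 0.000918). Itgax encodes the integrin CD11c of dendritic cells and gut macrophages. It lay at 399, 922 and 1270 in inflamed-intestine samples, against 31.2, 13.6 and 49.3 in marrow (log2 fold change 4.77, SE 0.92, adjusted p = 6.97e-05). Only 2 of the 3 marrow samples were above background for Itgax.

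Among the pattern recognition receptors of the list used, 3 of 5 were higher and 2 were not past the threshold. Cd14, which hands lipopolysaccharide to TLR4, had 66263, 93887 and 105482 normalised counts in inflamed-intestine samples, against 7521, 6239 and 3553 in marrow. It was 15.6-fold higher without overlap (log2 fold change 3.96, SE 0.38, adjusted p = 1.08e-09). Nod2, a sensor of muramyl dipeptide, was higher by a log2 fold change of 1.55 (adjusted p = 0.00456), and Tlr4 by 0.90 (adjusted p = 0.0358). The call of Tlr4 ended under 13 of 30 alternatives, among them the omission of inflamed mouse 1 or 5 or of any marrow mouse (0.78 to 0.98), and that of Nod2 under 4. Tlr2 had a log2 fold change of -0.50 (adjusted p = 0.323) and Tlr1 of 0.72 (adjusted p = 0.376). Tlr8, an endosomal receptor outside this list, was lower, at 2866, 3473 and 7249 in inflamed-intestine samples, against 5772, 12190 and 13987 in marrow. Here marrow mouse 1 lay within the range of the inflamed-intestine samples (log2 fold change -1.20, SE 0.48, adjusted p = 0.035). The call of Tlr8 ended without inflamed mouse 1, 2, 3 or 4 or marrow mouse 2 or 3 (-0.95 to -1.14).

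Downstream of these receptors, 2 of 5 adaptors and NF-kappaB subunits were lower and none was higher. Card9, the adaptor of fungal-sensing lectin receptors, gave 7443, 10557 and 12331 normalised counts in inflamed-intestine samples, against 38439, 22860 and 18824 in marrow. The groups were apart, with a log2 fold change of -1.34 (adjusted p = 6.95e-05, SE 0.26). Nfkb1, which encodes p105 and p50, lay at 9743, 12497 and 22059 in inflamed-intestine samples, against 32843, 20501 and 19741 in marrow, with 1 inflamed-intestine sample inside the marrow range (log2 fold change -0.77, SE 0.29, adjusted p = 0.0249). Without marrow mouse 1 the value for Nfkb1 was -0.50 (adjusted p = 0.184). Nfkb2, Relb and Traf6 had log2 fold changes of 0.58, 0.31 and 0.31, with adjusted p of 0.137, 0.628 and 0.493.

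The 3 largest decreases were those of Cx3cr1, Ly6c1 and Itgb7. Of 4 chemokine receptors, 2 were lower and 2 were not past the threshold. Cx3cr1, the fractalkine receptor, had 57.7, 77.7 and 147 normalised counts in inflamed-intestine samples, against 462, 4853 and 8907 in marrow. Its inflamed-intestine counts, 58 to 147, were close to background, and marrow mouse 1 was far below the other marrow samples. The log2 fold change of -5.76 (adjusted p = 2.2e-06, SE 0.85) was -4.93 without marrow mouse 3, and it was -2.70 among whole-count samples and -5.98 among multiplied ones.

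Ccr2, the exit receptor of marrow monocytes, lay at 17227, 30988 and 63480 normalised counts in inflamed-intestine samples, against 98180, 100766 and 112253 in marrow. Every inflamed-intestine sample was below every marrow sample (log2 fold change -1.37, SE 0.49, adjusted p = 0.0194). The 3 multiplied inflamed-intestine samples, at 54532 to 63480, were above the 4 whole-count ones, at 17227 to 30988. Within multiplied samples the log2 fold change of Ccr2 was -0.84 and was not past the threshold (adjusted p = 0.184), and within whole-count samples it was -1.94 (adjusted p = 0.011). Without marrow mouse 3 the call also ended, at -1.31 (adjusted p = 0.0556). Ccr7, the receptor that guides cells to lymph nodes, had a log2 fold change of 1.15 (adjusted p = 0.0878), and Ccr9, a gut-homing receptor, of -1.47 (adjusted p = 0.0508).

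Itgb7, the beta chain of the gut-homing integrin alpha4 beta7, gave 2774, 3970 and 4537 normalised counts in inflamed-intestine samples, against 28586, 23003 and 24341 in marrow. Both groups were narrow and far apart, a 6.54-fold lower level in the inflamed intestine (log2 fold change -2.71, SE 0.30, adjusted p = 1.58e-08). Ly6c1, named for the Ly6C surface antigen, had 162, 407 and 1748 in inflamed-intestine samples, against 4423, 10721 and 9050 in marrow. It was lower in every inflamed-intestine sample (log2 fold change -3.61, SE 1.00, adjusted p = 0.00326). Within multiplied samples its value was -3.07 and missed the threshold (adjusted p = 0.0659). Ly6c1 and its near-identical neighbour Ly6c2 cannot be told apart from the target name alone.

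Among the myeloid transcription factors, Stat6 was lower, as given above, and Irf5, Spi1, Cebpb and Irf4 were not past the threshold. Irf5 lay below marrow in every inflamed-intestine sample but missed the threshold (log2 fold change -0.72, adjusted p = 0.0658). Spi1, the master factor PU.1 of myeloid cells, had a value of -0.29 (adjusted p = 0.323), Cebpb of 0.62 (adjusted p = 0.265) and Irf4 of -0.67 (adjusted p = 0.185).

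**Figure D3:**
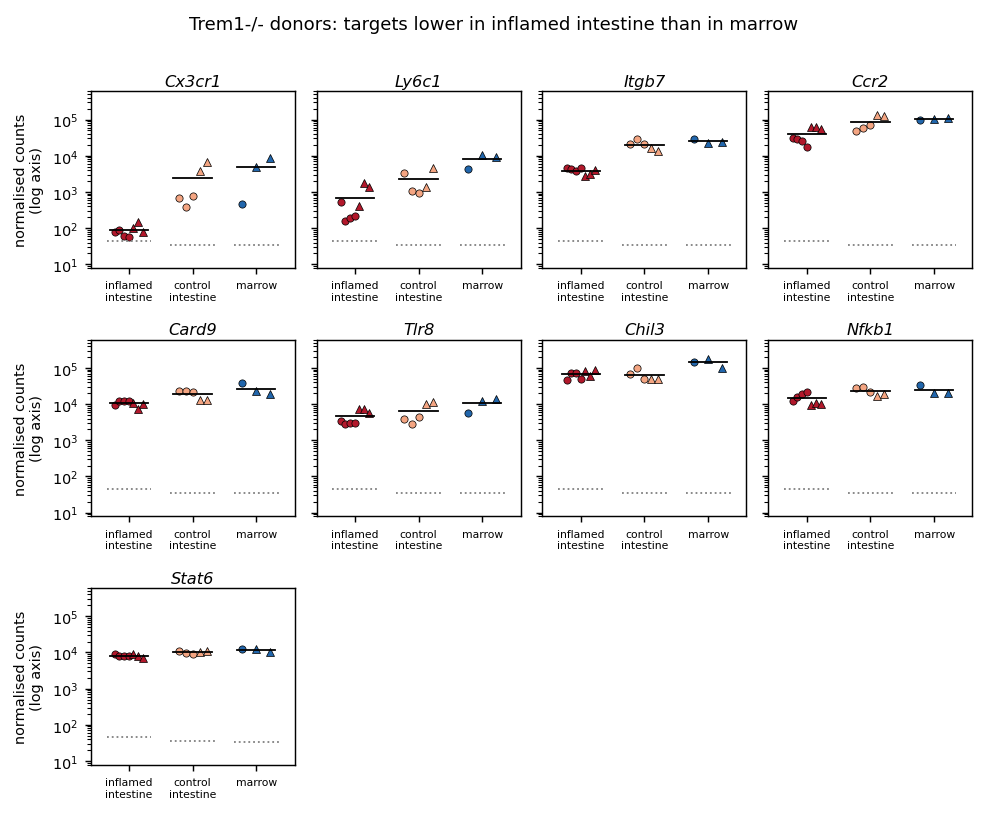
Normalised counts (log axis) of 9 of the 11 lower targets in each sample of Trem1-/- donors, in inflamed intestine, control intestine and marrow from left to right, with symbols and lines as in the plot of higher targets. Cx3cr1 spreads most widely in marrow, at 462, 4853 and 8907, and in Tlr8 and Nfkb1 the inflamed-intestine and marrow samples overlap.

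Monocyte and macrophage markers did not move as blocks. Among Ly6C-high monocyte markers, Cd14 was higher, Ccr2 and Chil3 were lower, and Csf1r and Spi1 were not past the threshold. Csf1r, the receptor of the macrophage growth factor, had a log2 fold change of -0.91 (adjusted p = 0.0691). Of 6 tissue macrophage markers, H2-Ab1, Mrc1 and Fcgr1 were higher, Cx3cr1 was lower, and Adgre1 and Trem2 were not past the threshold. Their summed level was 45134 to 82716 in inflamed-intestine samples and 25692 to 31626 in marrow. In inflamed-intestine samples this sum was mostly Fcgr1 (26514 to 47119) and H2-Ab1 (8261 to 34925), so it does not describe the 6 as a set. Fcgr1, the receptor CD64, had a log2 fold change of 1.21 (adjusted p = 0.0123, SE 0.40), of 0.54 (adjusted p = 0.289) among whole-count samples alone, and of 1.04 (adjusted p = 0.069) without marrow mouse 2.

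Adgre1, which encodes F4/80, had a log2 fold change of -1.76 (adjusted p = 0.0505) and was called lower under 14 of 30 alternatives. Trem2, a lipid-sensing relative of TREM1, had a log2 fold change of 0.18 (adjusted p = 0.808). Siglec1, a sialic acid receptor of macrophages, lay above marrow in every inflamed-intestine sample, at 3110 to 5418 against 204 to 1030, but missed the threshold (log2 fold change 3.03, SE 1.38, adjusted p = 0.0595). The pan-macrophage gene Cd68, the adhesion receptor Cd44 and the chemokine Ccl8 had log2 fold changes of -0.32, -0.35 and 0.10, with an adjusted p of 0.681 each. Ccl8 turned to -0.71 with TMM, -0.72 with DESeq2 and -0.61 with total gene counts, each past the threshold. Of 3 dendritic cell markers tested, Itgax was higher and Ccr7 and Irf4 were not past the threshold. Their summed level was 2401 to 4776 in inflamed-intestine samples and 1609 to 5440 in marrow. The panel held no neutrophil marker of the list used, 1 lymphocyte marker (Ccr9) and 1 epithelial or stromal marker (Cx3cl1, blank), so the part of such cells in these results was not tested.

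To see which differences from marrow also set the inflamed intestine apart from an intestine without surgery, the 7 samples were tested against the 5 of Trem1-/- donors in control intestine. Both comparisons use the same 7 samples. Here 10 of 55 targets (18.2%) were higher and 14 (25.5%) were lower in the inflamed intestine. The 10 higher ones, Arg1, Ccl2, Ccl7, Cxcl1, Il10, Il1a, Il23a, Il6, Mrc1 and Tnf, had all been higher than in marrow as well, out of 21. Arg1 had 124325, 134062 and 153559 normalised counts in inflamed intestine, against 87.6, 260 and 352 (lowest, median and highest of 5) in control intestine (log2 fold change 9.12, SE 1.13, adjusted p = 1.24e-07). Il10 had 23278, 45437 and 52988 in inflamed intestine, against 2355, 3189 and 3953 in control intestine, and was 13.9-fold higher (adjusted p = 2.4e-10).

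A set of 9 targets was higher than in marrow and did not pass against control intestine, among them Il1b (log2 fold change 0.63, adjusted p = 0.196), Cd80 (0.23, adjusted p = 0.577), Cd86 (0.28, adjusted p = 0.659) and Nod2 (-0.09, adjusted p = 0.859). Cd14 (0.62), Cxcl10 (1.71) and Tlr4 (0.71) each had an adjusted p of 0.0541 against control intestine. H2-Ab1 and Itgax took a middle position. H2-Ab1 lay at 8261, 26394 and 34925 in inflamed intestine, against 58646, 75123 and 141109 in control intestine, every inflamed sample being lower (log2 fold change -1.94, SE 0.70, adjusted p = 0.0257). This call ended without control mouse 4 (-1.72) or 5 (-1.83) or inflamed mouse 2 (-1.79). Itgax was lower than in control intestine by a log2 fold change of -1.72 (adjusted p = 0.0196, SE 0.59), with overlapping samples, and by -1.26 (adjusted p = 0.0978) without control mouse 5. The call of Tnf ended without control mouse 4 (1.14) or 5 (1.15). Control mice 4 and 5, left out for several calls here, were the multiplied samples of their group. Tnf was at 18418 and 19734 in them, against 61102 to 99281 in the 3 whole-count control samples. The part of the class in these lost calls was not tested.

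Of the 11 targets lower than in marrow, 6 were also lower than in control intestine, among them Card9, Ccr2, Cx3cr1, Itgb7 and Nfkb1. Itgb7 had 2774, 3970 and 4537 in inflamed intestine, against 13397, 20669 and 28777 in control intestine (log2 fold change -2.36, SE 0.27, adjusted p = 4.43e-08). Cx3cr1 was lower than in control intestine by a log2 fold change of -4.82 (adjusted p = 1.05e-05, SE 0.79), and by -4.03 without control mouse 5. The call of Ccr2 against control intestine ended without control mouse 4 or 5 or inflamed mouse 1, 2, 3 or 4 (-0.93 to -1.07), and that of Nfkb1 without control mouse 1 or 2 or inflamed mouse 5 or 7 (-0.58 to -0.63). Chil3 (0.08), Ly6c1 (-1.78), Stat6 (-0.32) and Tlr8 (-0.50) were lower than in marrow and did not pass against control intestine. A last set of 6, Ccr7, Csf1r, Cxcl9, Il10ra, Spi1 and Tgfb1, was lower than in control intestine and not past the threshold against marrow. Here Ccr7 lost its call without control mouse 1 (-1.16), and Il10ra without control mouse 4 (-1.23) or 5 (-1.15).

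Whether the change from marrow depended on the donor's genotype was tested as the Trem1-/- change minus the WT change, with no sample shared between the 2. Only 3 of 55 targets (5.45%) passed, all with a larger rise in Trem1-/- cells, and 8 had an unadjusted p under 0.05. Il10 had 23278 to 52988 normalised counts in Trem1-/- inflamed samples and 751 to 2075 in Trem1-/- marrow, next to 11179 to 20171 in WT inflamed samples and 1303 to 1611 in WT marrow. The difference of the log2 changes was 1.70 (adjusted p = 0.0327, SE 0.49). All 7 Trem1-/- inflamed samples were above all 5 WT inflamed samples for Il10, while the marrow samples of the genotypes overlapped. Such separation of the inflamed samples was not particular to Il10. It was also seen for targets without a genotype call, among them Ccl2, Ccl7 and Mrc1 (above) and Cd80, Nod2 and Spi1 (below).

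For Cxcl10 the difference was 4.83 (adjusted p = 0.0219, SE 1.27). Its levels were 8846 to 92524 in Trem1-/- inflamed samples and 633 to 811 in Trem1-/- marrow, next to 12424 to 39588 in WT inflamed samples and 1188, 24319 and 771 in WT marrow. WT marrow mouse 2 lay within the range of the inflamed samples, and without it the difference was 1.67 (adjusted p = 0.423). For H2-Ab1 the difference was 5.19 (adjusted p = 0.0219, SE 1.32). Its levels were 8261 to 34925 in Trem1-/- inflamed samples and 76.4 to 152 in Trem1-/- marrow, next to 653 to 65228 in WT inflamed samples and 2695, 9972 and 227 in WT marrow. Without WT marrow mouse 2 it was 3.63 (adjusted p = 0.206), and without WT inflamed mouse 4 it was 5.80. The WT inflamed samples were split by class for H2-Ab1. Whole-count mice 1 and 2 were at 2146 and 653, and multiplied mice 3 to 5 (mouse 5 by 2) at 31202 to 65228. The multiplied Trem1-/- inflamed samples lay below the latter, at 17297 to 29157. The part of the class in this difference was not tested.

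Without WT marrow mouse 2, Il10 also lost its call at 1.60, and so did all 3 targets without Trem1-/- marrow mouse 1 or mouse 2. Without Trem1-/- marrow mouse 3, Il10 alone was called. The call of Il10 further ended without WT inflamed mouse 1, 4 or 5 or Trem1-/- inflamed mouse 2 or 4 (1.61 to 1.69). The geometric mean of the positive control probes was 766 to 1033 in Trem1-/- inflamed samples and 247 to 555 in WT inflamed samples, without overlap, and scaling by it left 0 of the 3 calls. The part of this in the genotype difference was not tested.

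**Figure D4:**
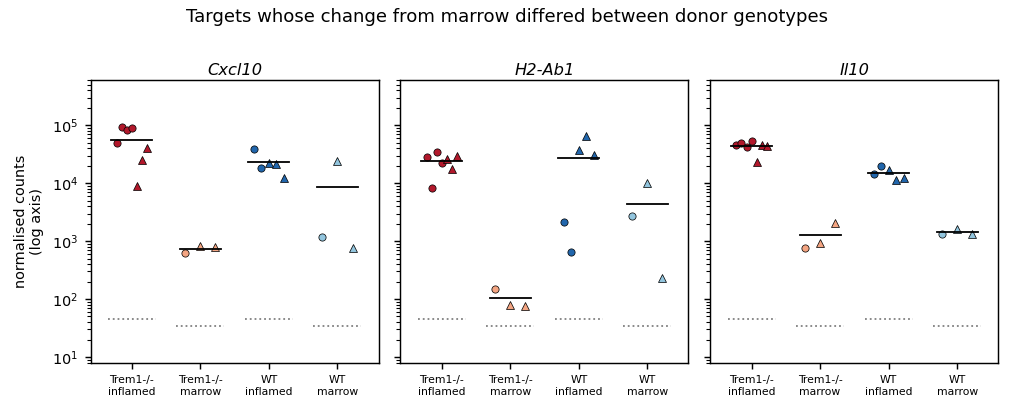
Normalised counts (log axis) of Cxcl10, H2-Ab1 and Il10 per sample in Trem1-/- inflamed intestine, Trem1-/- marrow, WT inflamed intestine and WT marrow, from left to right. Circles are whole-count samples, triangles multiplied ones, black lines means and dotted lines the mean background; 1 WT marrow sample stands at 24319 for Cxcl10 and 9972 for H2-Ab1.

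The multiplied and whole-count samples were compared as a technical division. Within the inflamed intestine the 3 multiplied and 4 whole-count samples did not overlap for 19 of 55 targets, 12 above and 7 below, and 10 and 5 of these went the same way in marrow. Cd68 was among them, at 16880 to 20267 in multiplied and 5153 to 7207 in whole-count inflamed-intestine samples. In marrow it was at 16107 and 21845 in multiplied samples and 5353 in the whole-count one. Marrow held only 1 whole-count sample, so its classes part readily at any target. Where the inflamed-intestine classes overlapped, multiplied marrow samples lay above the whole-count one for 19 targets, below for 8 and either side for 9. The log2 difference from marrow turned sign between the classes for 13 of the 55 targets, none of them among the 32 called ones, which were called on all samples together. Of the 32, 10 had inflamed-intestine samples apart by class, and 17 had a fold difference from marrow that moved by over 1.5 times between the classes. Beside those given above these included Nod2 (1.08 within multiplied and 2.54 within whole-count samples, on the log2 scale), Il10 (4.68 and 5.98), Cd86 (1.82 and 3.04) and H2-Ab1 (8.24 and 7.10). Among multiplied samples alone 19 targets were higher and 12 lower, and among whole-count samples alone 20 were higher and 7 lower. With the class as a block in the fit the counts were 22 and 12. The part of the class in other targets was not tested.

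**Figure D5:**
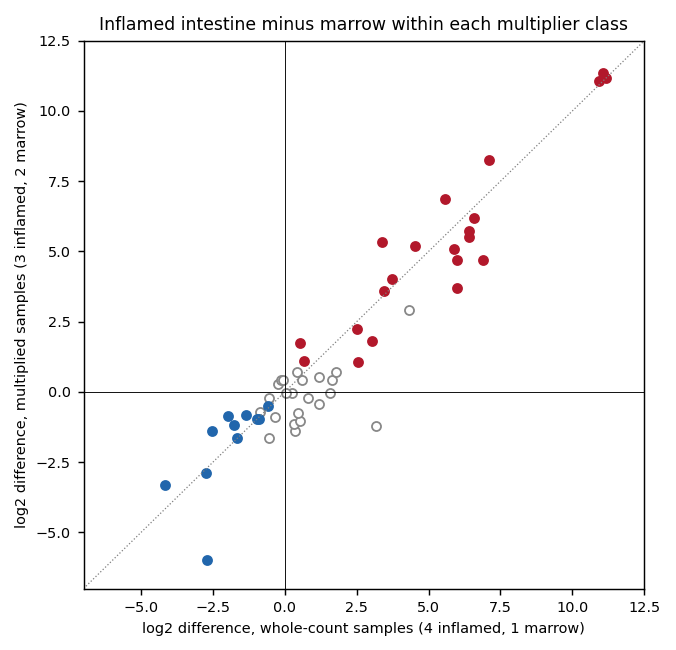
Difference of mean log2 levels, inflamed intestine minus marrow, for each of the 55 targets within whole-count samples (horizontal axis, 4 inflamed and 1 marrow) and within multiplied samples (vertical axis, 3 inflamed and 2 marrow). Filled points are targets with adjusted p under 0.05 in all samples; all 32 lie in the upper right or lower left quadrant.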

How the data were processed

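The deposited raw table held barcode counts per probe, made per the labels' protocols by reverse transcription, multiplexed target enrichment and nCounter hybridisation. It had no molecular identifiers. The SE and p-values of the edgeR fit rest on the spread between samples. For 14 of 28 samples the authors deposited expected counts, here whole counts times 1 multiplier per column. Dividing it out gave 100.0% whole numbers (tolerance 0.0001). The deposited normalised values are a score without a stated unit, raw values times 1 factor per sample (0.515 to 1.74 in the compared samples), and entered only as an alternative. The sources used here do not give the origin of the multipliers and factors. Unmapped sample columns numbered 0.

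For scaling, each sample's counts were divided by its Actb, Gapdh and Rpl19 level (geometric mean). A quasi-likelihood fit of edgeR 4.0.16 (R 4.3.3) over 28 samples in 6 groups gave log2 fold changes. Their p-values were adjusted by Benjamini-Hochberg over 55 targets with a threshold of 0.05. The SE was the absolute log2 fold change over the square root of the test's F statistic. It draws on the spread in all 6 groups, not only in the 10 samples compared. Targets had to lie above background in at least 3 samples, and the fit was tested on simulated data. DESeq2 1.42.0 and limma 3.58.1 on log2(value + 1) served as alternatives. Python 3.11.15 with pandas 2.3.3, scipy 1.17.1 and matplotlib 3.10.9 made tables, exact tests and figures. Samples are separate mice by their titles. No 2 samples of a group were copies (lowest chi-square per degree of freedom 425.4). Same-numbered inflamed-intestine and marrow mice did not deviate together (correlations 0.10, -0.27 and -0.09), and the numbers were not taken as pairs. For mice 2 and 3 the inflamed-intestine sample was whole-count and the marrow sample multiplied, so these correlations could not exclude pairing. Of 72 targets, 69 were matched to RefSeq by transcript and the others by symbol. Alternatives covered scaling, multipliers, filters, background, test, samples in the fit and each sample left out. All tested targets could be named by the rule. It gives values in every sample for the 10 largest changes called in each direction, the targets of the genotype difference and the leading members of lists. Comparisons, lists and members were chosen with earlier results of these data known. Some tested targets are not reported here by name, though they count in the totals.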

Additional observations from a re-analysis of the deposited data

Results flagged for a closer look

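Of 55 targets, 4 had a single inflamed-intestine sample of Trem1-/- donors far from the other 6. The measure was the gap to the nearest sample over the range (critical value 0.568), on unlogged levels with both multiplier classes together. Chance would mark about 1 in 20 targets if levels were normally distributed. Cxcl9 was at 1552 normalised counts in mouse 7 and at 221.6 in the next highest. Adgre1 was at 3037 in mouse 6 and at 1230.2 in the next. Mrc1 was at 4788 in mouse 6 and at 2527 in the next. Il10 was at 23278 in mouse 5, below the next lowest at 41523. Each of these samples was a multiplied one. For Adgre1 and Mrc1 all multiplied inflamed-intestine samples lay above the whole-count ones, while for Cxcl9 and Il10 the classes overlapped.

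The change from marrow differed between Trem1-/- and WT donors for Cxcl10 (4.83 on the log2 scale), H2-Ab1 (5.19) and Il10 (1.70), by the interaction of the edgeR fit, and each call ended without WT marrow mouse 2.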

How the results depend on the processing

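Of the 32 calls between inflamed intestine and marrow, 23 held under all 30 alternatives, 18 of them higher and 5 lower (among them Cx3cr1, Itgb7 and Card9). The others, Fcgr1, Nod2, Tlr4, Ccr2, Chil3, Ly6c1, Nfkb1, Stat6 and Tlr8, each lost the call under at least 1. Not all of the 30 could end a call. The filter alternatives kept the same 55 targets, and housekeeping scaling cancels the multiplier left in the deposited counts. Some targets that were not called gained a call in the same direction. This was most frequent for Adgre1 (14 of 30 alternatives), Ccr9 (13), Csf1r (11) and Irf5 (10), all lower, and for Siglec1 (7), higher. Lower targets numbered 20 with TMM, 21 with DESeq2, 21 with total gene counts, 7 without Gapdh as a housekeeping gene and 7 among whole-count samples; the cause was not tested. Leaving out 1 sample gave 19 to 21 higher and 8 to 13 lower. With the mouse number as a replicate block 21 were higher and 11 lower.

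The genotype difference gave 5 higher and 1 lower with DESeq2, 0 higher with positive controls, 0 among multiplied samples, 1 among whole-count samples, 0 with the authors' values and 2 higher and 1 lower with the replicate block. Single calls ended for Cxcl10 with the replicate block (4.53, adjusted p = 0.0929) and limma (2.96), for H2-Ab1 with the compared groups alone (5.19, adjusted p = 0.0697) and for Il10 with TMM (1.66), total gene counts (1.52) and without Actb (1.64). Leaving out 1 sample gave 0 to 3 higher and 0 to 1 lower. Against control intestine, higher targets numbered 21 with the authors' values, and lower ones 4 with positive controls, 9 without Rpl19, 8 among multiplied samples and 2 with the authors' values. Leaving out 1 sample gave 9 to 12 higher and 10 to 14 lower. Ccl8 against marrow reversed to -0.71 (TMM), -0.72 (DESeq2) and -0.61 (total gene counts), and Tgfb1 to -0.71 (DESeq2) and -0.67 (total gene counts). Against control intestine with the authors' values Card9 reversed to 0.081, Nfkb1 to 0.16, Spi1 to 0.20 and Tgfb1 to 0.27. Genes near background in marrow, among them Arg1, Ccl7, Il1a, Il6 and Itgax, have uncertain sizes, and so does Vegfa, with marrow mouse 1 below background. H2-Ab1 (76.4 to 152 normalised counts) and Mrc1 (68.6 to 104) were also low in marrow, where the background limit was 27.2 to 40.2 on that scale.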
